A study of Gallus gallus with 6 samples.

Results

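The regions described here are those whose closest gene is LHX9, NR5A1, WT1, EMX2, TCF21, INHBB or FSHR, 7 genes of gonad formation and of the Sertoli cell. All regions that carry 1 of these symbols in the 3 deposited tables were taken, which gave 16 distinct regions out of 10677. Each region has its position, its distance from the annotated start and a read count in every library of its table. Counts exist in all 3 populations for 12 of the 16 regions and in 2 populations for the other 4.

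Chromatin immunoprecipitation (IP) with an antibody against di- and trimethylated lysine 4 of histone H3 was compared with input DNA in 3 chicken cell populations, while the series title names the dimethylated form alone. Each population had 1 IP library and 1 input library. The spermatogonial stem cells (SSC) were prepared from testes of embryos, digested with collagenase and then trypsin and cultured in DMEM with FBS, at 18.5 d of incubation in the protocol and 18 d in the stage label. The primordial germ cells (PGC) were released from genital ridges with trypsin and EDTA and passed through a short differential culture, at 4.5 d in the protocol, while their stage label reads 72 h (stage 27). The embryonic stem cells (ESC) were taken from blastoderms at stage X and held for 24 h in DMEM with FBS, LIF, bFGF and SCF before differential purification. No genotype or treatment separates the groups, no cell sorting is described, and the PGC and SSC preparations were made from tissue that also holds somatic gonad cells. In such bulk material, fewer cells of a type and less signal per cell cannot be told apart.

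The vertebrate gonad forms on the surface of the mesonephros as a thickening of the coelomic epithelium, the genital ridge, into which germ cells migrate. The transcription factors LHX9, NR5A1, WT1 and EMX2 are needed for this ridge in mouse, and TCF21 acts in the mesenchyme of urogenital organs in mouse. In the testis, Sertoli cells surround the germ cells, respond to follicle-stimulating hormone (FSH) through the receptor FSHR, and secrete inhibins and activins, of which INHBB encodes a beta subunit. Methylated H3K4 marks promoters and enhancers that are active or poised.

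Library totals ran from 19.15 M reads in the SSC IP to 26.03 M in the ESC IP, and the median listed region held 11 to 23 reads in the IP libraries and 4 to 6 in the inputs. Every listed region was a peak in at least 1 of the 2 populations of its table and had an enrichment above 1 in both. A peak call alone did not place a region in a table. Of the 15 SSC peaks of the genes described here, 13 were listed with ESC and 13 with PGC. Enrichment is the IP over the input value, each computed as the count plus 1 over the library total in M reads (RPM). With 1 library per kind there is no replicate, so every interval below is a 95% interval of counting error alone, and each comparison is between libraries. Defining germ cell genes had few listed regions: of 10 spermatogonial markers 9, DDX4, DAZL, GFRA1 and ZBTB16 among them, had no region in any table, and of 9 PGC markers 7 had none. Missing regions were not particular to germ cell genes. None was listed for 3 of 7 Sertoli, 4 of 6 interstitial, 5 of 7 fibroblast and peritubular, and 4 of 6 blood and endothelial markers. The share over all genes is not given, so these counts have no background. The spermatogonial marker with a region, ITGB1, was a peak in ESC and not in SSC, and of the PGC markers TFAP2C was a peak in ESC, CXCR4 in SSC and none in PGC. The peak call at ITGB1 gives no direction. At its region nearest the start the log2 ratio of enrichment for SSC over ESC was 1.16 (-2.19 to 4.50), with an SSC input of 0 reads. Of 9 ESC markers, 4 had a region, and 3 were peaks in each population, KLF5 and MYCN in all, LIN28B in ESC, and TFCP2L1 in SSC and PGC. Counted as peaks at any distance, the markers therefore do not tell the 3 populations apart by their labels. At their regions nearest the start in the comparisons with ESC, KLF5 and MYCN were ESC peaks only. For SSC over ESC the log2 ratio of enrichment was -2.17 (-3.67 to -0.67) at KLF5 and -1.71 (-2.38 to -1.05) at MYCN. For PGC over ESC it was -3.29 (-4.76 to -1.83) and -2.74 (-3.41 to -2.08). Where listed there, LIN28B and TFCP2L1 had intervals that included 0. A gene without a listed region may still carry signal, as it may be unenriched in 1 population or enriched without a peak call.

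Of the 16 regions, 15 were peaks in SSC, 1 in PGC (FSHR) and 0 in ESC. LHX9, WT1 and INHBB had 3 SSC peaks each, TCF21 had 4, and NR5A1 and EMX2 had 1 each. Among all 1621 genes with an SSC peak, 8.51% had 3 or more, and 4 of the 6 genes here did. The genes were chosen with earlier results of these data known, so nothing is concluded from this difference. The regions lay close to their genes: 12 of the 16 were within 4 kb of the annotated start, 12 overlapped the gene model, and 5 lay upstream. Among SSC peaks that were not ESC peaks, the median distance over the whole table was 5285 bp, compared with 1850 bp for the 13 regions of these genes. Widths ran from 200 to 932 bp with a median of 309.5 bp.

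**Figure D1:**
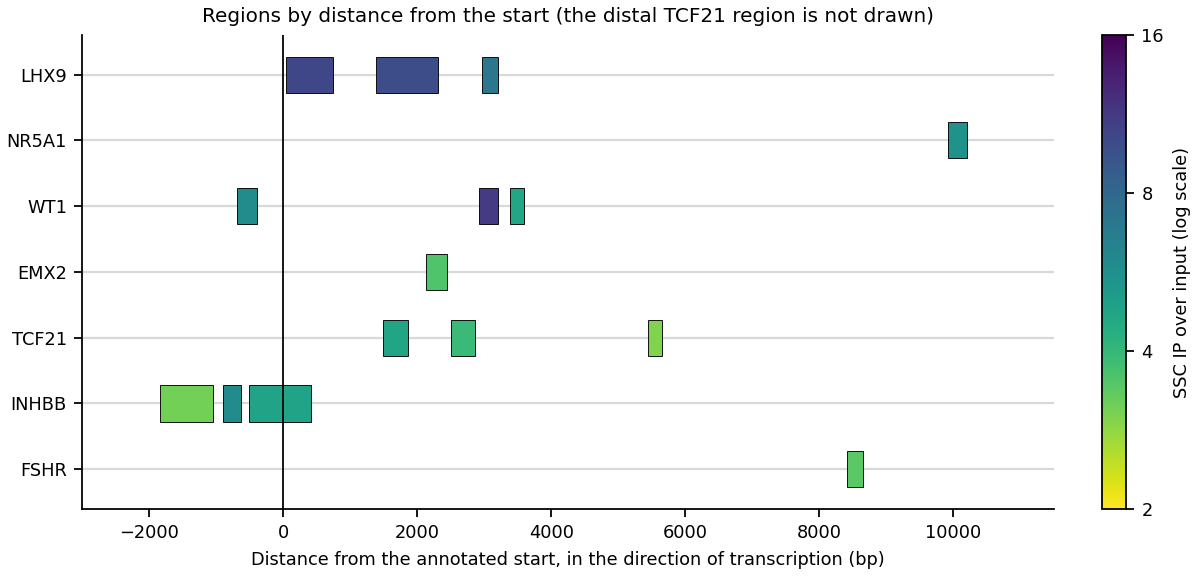
Position of each region along the direction of transcription, in bp from the annotated start (vertical line), with bars drawn to the width of the region and coloured by SSC enrichment on a log scale. LHX9 and WT1 hold the darkest bars, and the LHX9 bar at 3082 bp, whose SSC input held 0 reads, is coloured by its lower bound. The TCF21 region that lies 56321 bp upstream is left out.

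At the SSC peaks of these genes, IP signal per length was alike in SSC and higher there than in the other populations. Over the 15 SSC peaks, the SSC IP level ran from 2.65 to 4.36 RPM per kb, with a median of 3.29. In the PGC IP the 13 of these regions with counts ran from 1.07 to 2.78 RPM per kb (median 1.45), and in the ESC IP 13 ran from 0.763 to 2.49 RPM per kb (median 1.48). In all 13 regions with PGC counts, and in all 13 with ESC counts, the SSC level was the higher one. All 15 SSC levels were also above the highest ESC level of any of the regions. These regions were SSC peaks, and a peak call by itself favours a higher SSC value. Over the 2225 SSC peaks of other genes that were not ESC peaks, the median IP level was 3.39 RPM per kb in SSC and 1.76 in ESC, and SSC was the higher one in 97.9%. Over the 2514 that were not PGC peaks, the medians were 3.39 RPM per kb in SSC and 1.81 in PGC, and SSC was the higher one in 96.3%. The direction at the 6 genes with SSC peaks is thus that of SSC peaks in general. The FSHR region, which was no SSC peak, had 2.34 RPM per kb in SSC, 2.61 in PGC and 1.25 in ESC.

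**Figure D2:**
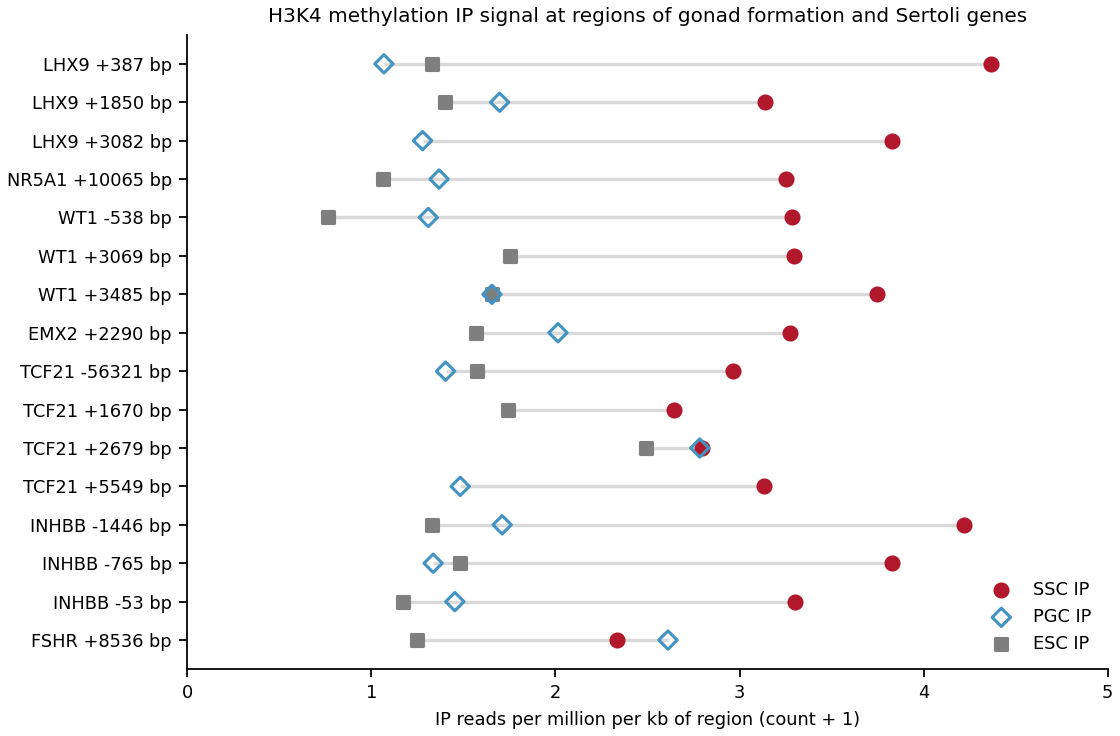
IP level in RPM per kb of region for SSC (filled circles), PGC (open diamonds) and ESC (squares), 1 row per region, named by gene and distance from the start, with 1 library per point. SSC points lie to the right of the others in every row except FSHR, and in the TCF21 row at 2679 bp the SSC and PGC points nearly coincide.

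LHX9, a LIM homeobox transcription factor, had the highest SSC enrichment of the 7 genes when reads were summed over the regions of a gene. It was 12.3 (interval 7.30 to 26.2) over its 3 regions. Relative to INHBB this rank rests on the input reads. In SSC, LHX9 held 128 IP and 12 input reads over 1858 bp, and INHBB 137 and 41 over 1957 bp. In the IP libraries alone, the summed log2 ratio over ESC was 1.43 (0.971 to 1.89) for LHX9 and 1.57 (1.14 to 2.004) for INHBB. Over PGC it was 1.42 (0.951 to 1.89) and 1.31 (0.866 to 1.75), which is the other order. The LHX9 start region (chromosome 8, 2278668 to 2279362, galGal4) is centred 387 bp downstream of the start. It runs from the UTR over the first exon into the first intron. It had 57 IP over 6 input reads in SSC, 14 over 10 in PGC, and 23 over 8 in ESC. Enrichment was 10.2 (interval 5.08 to 33.3) in SSC, 1.68 (0.714 to 4.35) in PGC and 2.04 (0.952 to 5.70) in ESC. Only the SSC interval lies above 1, and it does not overlap the PGC interval. The log2 ratio was 2.61 (1.01 to 4.20) for SSC over PGC and 2.33 (0.74 to 3.91) for SSC over ESC.

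A second LHX9 region (chromosome 8, 2277086 to 2278018), centred in the first intron at 1850 bp, had 55 IP over 6 input reads in SSC, 31 over 19 in PGC, and 33 over 7 in ESC. Its enrichment of 9.89 (4.89 to 32.2) in SSC stands beside 1.97 (1.10 to 3.77) in PGC and 3.26 (1.57 to 9.68) in ESC, so it was above input in all 3 libraries. The log2 ratio was 2.32 (0.93 to 3.72) over PGC and 1.60 (0.01 to 3.19) over ESC, where the exact conditional interval began at -0.29. Without inputs the log2 ratio over PGC was 0.89 (0.26 to 1.51), as the PGC input held 19 reads there and the SSC input 6.

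The third LHX9 region (chromosome 8, 2276204 to 2276436), on the third exon at 3082 bp, was listed for SSC and PGC only. It had 16 IP over 0 input reads in SSC, and 5 over 4 in PGC. With the SSC input at a floor of 3 counts, SSC enrichment was at least 4.73-fold higher than in PGC, with the counting error of the remaining reads left out of this bound. The counting interval of the log2 ratio began at 0.45. Summed over the 3 regions, LHX9 had 128 IP over 12 input reads in SSC, against 50 over 33 in PGC, a log2 ratio of 2.73 (1.69 to 3.76). Over the 2 regions listed with ESC, the sums were 112 over 12 in SSC, against 56 over 15 in ESC, a log2 ratio of 1.98 (0.82 to 3.13). Among SSC peaks that were not ESC peaks, the start region stood at percentile 97.7 by SSC enrichment, 98.1 by SSC IP reads and 92.5 by log2 ratio over ESC. The read percentile is not corrected for width, which was 694 bp here and 235.5 bp in the median of those peaks. INHBB at -53 bp stood at the same read percentile.

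NR5A1, also called SF-1, is an orphan nuclear receptor that drives steroidogenic genes and, in mouse, is needed for gonad and adrenal formation. Its single region (chromosome 17, 9434642 to 9434931) lies within the fourth intron, 10065 bp from the start. It had 17 IP over 3 input reads in SSC, 7 over 5 in PGC, and 7 over 5 in ESC. PGC and ESC had the same 2 counts, and only the SSC enrichment of 5.56 (2.03 to 37.3) had an interval above 1. The log2 ratio was 1.76 (-0.43 to 3.94) over PGC and 2.44 (0.26 to 4.63) over ESC, and the second interval began at -0.12 when computed by the exact conditional method. In the IP libraries alone the log2 ratio over PGC was 1.25 (0.05 to 2.45), so that interval excluded 0 while the one with inputs did not. Within 100 kb of the NR5A1 model, 7 other regions were closest to other starts, of which 4 were peaks in SSC, 1 in PGC and 3 in ESC, as a region may be a peak in more than 1 population.

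WT1, a zinc finger transcription factor of kidney and gonad that marks Sertoli cells, had 3 SSC peaks. The region upstream of the start (chromosome 5, 5489810 to 5490112, at -538 bp) had 18 IP over 3 input reads in SSC, 7 over 5 in PGC, and 5 over 2 in ESC. In the IP libraries alone this was the largest difference over ESC among the members, with a log2 ratio of 2.11 (0.78 to 3.43). With inputs it was 1.94 (-0.60 to 4.47) over ESC and 1.84 (-0.34 to 4.02) over PGC, so both intervals included 0.

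The other 2 WT1 regions lay within 4 kb of the start in the first intron. The region at 3069 bp (chromosome 5, 5486211 to 5486496) had 17 IP over 1 input reads in SSC and 12 over 2 in ESC. Its SSC enrichment of 11.1 (3.29 to 879) was the highest point value among the regions with an input read, with the widest interval, as it rests on a single input read. The region at 3485 bp (chromosome 5, 5485833 to 5486042) had 14 over 3 in SSC, 6 over 3 in PGC, and 8 over 2 in ESC. Summed over its regions, WT1 had a log2 ratio of 1.60 (-0.08 to 3.29) over PGC and 1.44 (-0.17 to 3.06) over ESC.

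EMX2, a homeobox factor needed for the urogenital system in mouse, had 1 region (chromosome 6, 28817034 to 28817353) at the end of the first intron, 2290 bp from the start. It had 19 IP over 6 input reads in SSC, 12 over 7 in PGC, and 12 over 4 in ESC. The log2 ratio was 0.82 (-0.96 to 2.59) over PGC and 0.83 (-1.11 to 2.76) over ESC. Both were under 2-fold with intervals that included 0. Without inputs the ratio was 0.70 (-0.31 to 1.71) over PGC and 1.06 (0.06 to 2.07) over ESC.

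TCF21, a basic helix-loop-helix factor, had the most regions, and no counting interval of their log2 ratios excluded 0. The region in the last intron (chromosome 3, 55550713 to 55551088, at 1670 bp) had 18 IP over 4 input reads in SSC and 16 over 6 in ESC, a log2 ratio of 1.34 (-0.57 to 3.24). A region in the trailing UTR (chromosome 3, 55549714 to 55550069, at 2679 bp) had 18 over 5 in SSC, 19 over 11 in PGC, and 22 over 6 in ESC. There the IP levels of SSC and PGC were nearly equal, with a log2 ratio without inputs of 0.01 (-0.90 to 0.91), while the ratio with inputs was 0.93 (-0.75 to 2.61).

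A further UTR region (chromosome 3, 55546922 to 55547122, at 5549 bp) was 200 bp wide, the smallest width listed in any table, and had 11 IP over 4 input reads in SSC and 5 over 5 in PGC. The remaining one lay 56321 bp upstream of the start (chromosome 3, 55608734 to 55609051), outside the TCF21 model, and had 17 over 7 in SSC, 8 over 7 in PGC, and 12 over 6 in ESC. Summed over its regions in each table, TCF21 had a log2 ratio of 1.01 (-0.09 to 2.11) over PGC and 0.93 (-0.16 to 2.03) over ESC. Within 100 kb of the TCF21 model, 4 other regions were closest to other starts, among them those of SGK1, SLC2A12 and TBPL1, and 3 of the 4 were ESC peaks.

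INHBB, the beta B subunit of inhibin and activin, carried a block of 3 SSC peaks that spans its annotated start. The region over the start (chromosome 7, 25067606 to 25068524, centred at -53 bp) had 57 IP over 14 input reads in SSC, 26 over 22 in PGC, and 27 over 15 in ESC. Enrichment was 4.78 (2.77 to 9.78) in SSC, 1.45 (0.795 to 2.70) in PGC and 1.34 (0.708 to 2.79) in ESC. Only SSC was above input by its interval, which lay above the PGC interval and overlapped the ESC interval at its edge. The log2 ratio was 1.72 (0.58 to 2.87) over PGC and 1.83 (0.63 to 3.04) over ESC.

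The next region upstream (chromosome 7, 25067223 to 25067482, at -765 bp) had 18 IP over 3 input reads in SSC, 6 over 5 in PGC, and 9 over 3 in ESC. The farthest (chromosome 7, 25066282 to 25067062, at -1446 bp) had 62 over 24 in SSC, 26 over 20 in PGC, and 26 over 10 in ESC. It had the most SSC IP reads of all 16 regions and also the most SSC input reads, and its log2 ratio was 0.97 (-0.09 to 2.03) over PGC and 0.73 (-0.48 to 1.94) over ESC. Without inputs that ratio was 1.30 (0.65 to 1.95) over PGC and 1.67 (1.01 to 2.32) over ESC. Summed over the 3 regions, INHBB had 137 IP over 41 input reads in SSC, against 58 over 47 in PGC and 62 over 28 in ESC. The log2 ratios of the sums were 1.42 (0.68 to 2.16) over PGC and 1.29 (0.48 to 2.09) over ESC. The annotated INHBB model is only 777 bp long, shorter than the coding sequence of the full precursor, so distances from its start may not be distances from the true one.

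FSHR, the FSH receptor of Sertoli and granulosa cells, differed from the other genes in that its single region was a PGC peak and no SSC peak. The region (chromosome 3, 7349350 to 7349596) lies in the first intron, 8536 bp from the start, and had 10 IP over 3 input reads in SSC, 12 over 6 in PGC, and 7 over 5 in ESC. The counts lie close together, with SSC enrichment at 3.40 (1.06 to 23.3), PGC enrichment at 2.29 (0.857 to 8.02) and ESC enrichment at 1.02 (0.293 to 4.29). The log2 ratio was 0.57 (-1.55 to 2.69) for SSC over PGC and 1.17 (-0.86 to 3.19) for PGC over ESC. Neither direction was detectable at this depth, and without inputs the SSC over PGC value was -0.16 (-1.32 to 0.997). No other region was listed within 100 kb of the FSHR model, and no region was listed at its start.

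**Figure D3:**
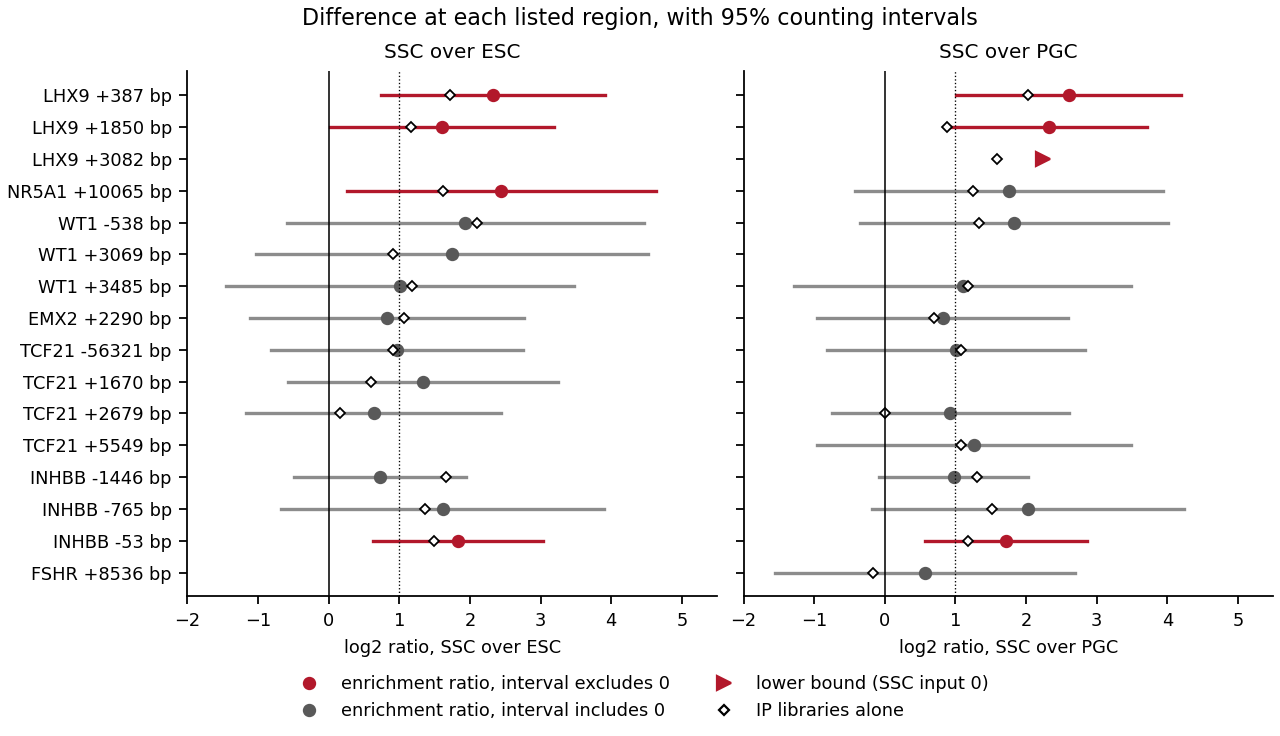
Log2 ratio of enrichment in SSC over ESC (left) and SSC over PGC (right) at each region, with 95% counting intervals, the solid line at 0 and the dotted line at 2-fold. Red points have intervals that exclude 0, the triangle is a lower bound without an interval, open diamonds are the IP libraries alone, and rows without a point were not listed in that table. All points of the enrichment ratio lie right of 0, and the red ones belong to LHX9, NR5A1 and INHBB on the left and to LHX9 and INHBB on the right.

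SSC over ESC asks how H3K4 methylation at these genes differs between the unsorted SSC preparation of the late embryonic testis and the ESC preparation. Enrichment was at least 2-fold higher in SSC at 9 of the 13 listed regions and at least 2-fold lower at 0. Of all 5840 regions listed for this pair, 26.3% were at least 2-fold higher in SSC and 35.1% at least 2-fold lower. Of the 2238 that were peaks in SSC and not in ESC, as all 13 were, 65.2% were at least 2-fold higher. Against that second background 9 of 13 is near the general share. The median log2 ratio was 1.60 over the 13 regions, 1.27 over those 2238 and -0.31 over the whole table. The counting interval excluded 0 at 4 regions, the first 2 of LHX9, that of NR5A1 and that of INHBB at -53 bp, and the exact conditional interval at 2 of them, LHX9 at 387 bp and INHBB. By the counting interval the same held for 12.6% of the SSC peaks and, in this direction, for 4.95% of all regions. No share over other regions is given for the exact conditional interval, so its count has no background. In the IP libraries alone, the counting interval excluded 0 at 8 of 13, compared with 34.1% of the SSC peaks.

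SSC over PGC sets the same testis preparation against the PGC preparation of the early gonad. Enrichment was at least 2-fold higher in SSC at 10 of the 14 listed regions and at least 2-fold lower at 0, while the others, which include FSHR, lay between 0.57 and 0.97 on the log2 scale. At least 2-fold higher in SSC were 37.8% of all 4823 regions of the table and 71.0% of the 2527 that were peaks in SSC and not in PGC, and 21.2% of all regions were at least 2-fold lower. Without FSHR, 13 regions were peaks in SSC and not in PGC, and 10 of 13 is near that share of 71.0%. The median log2 ratio was 1.49 over the 14 regions, 1.72 over the 13, 1.37 over those 2527 and 0.42 over the whole table. The interval excluded 0 at 4 regions, the 3 of LHX9 and that of INHBB at -53 bp, compared with 18.8% of the SSC peaks and 9.85% of all regions. In the IP libraries alone it did so at 8 of the 13, compared with 28.3% of the SSC peaks. Both comparisons use the same SSC libraries, so their values do not support each other.

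**Figure D4:**
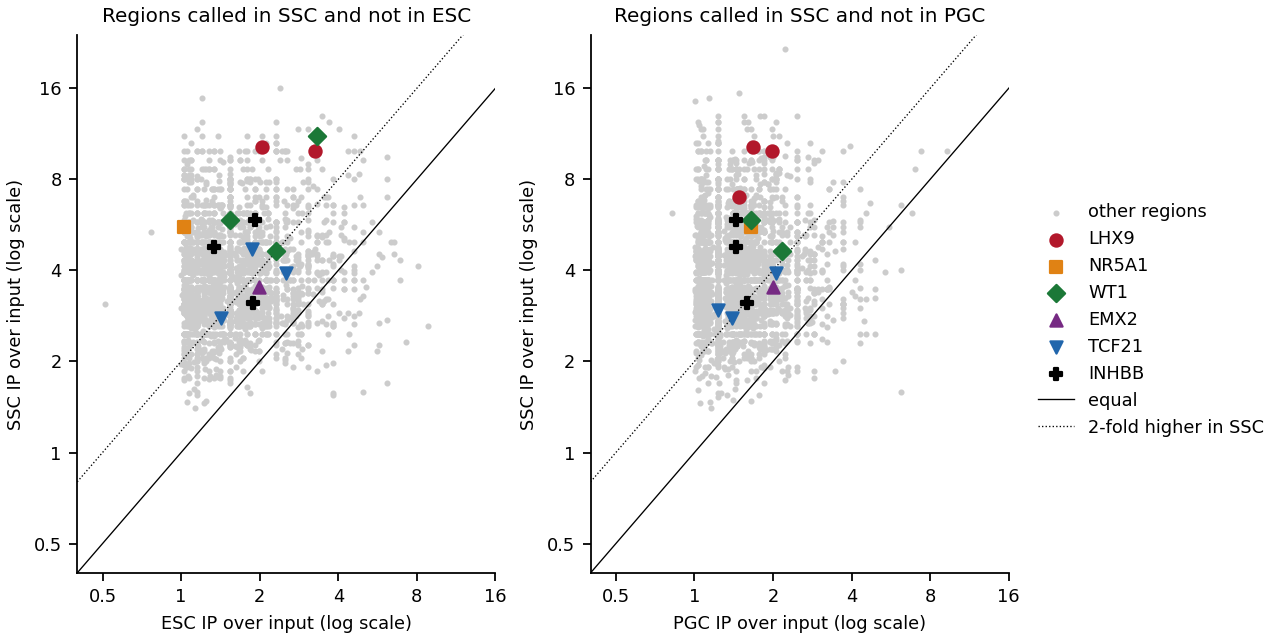
SSC enrichment against ESC enrichment (left) and PGC enrichment (right), on log scales, for regions that were peaks in SSC and not in the other population, with inputs of 0 reads at the floor of 3 counts. Grey points are regions of other genes, the solid line marks equal enrichment and the dotted line a value 2-fold higher in SSC. The first 2 LHX9 regions lie near the top of the grey cloud in both panels, and TCF21, EMX2 and INHBB at -1446 bp lie on or below the dotted line, except TCF21 at 1670 bp on the left and at 5549 bp on the right.

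PGC over ESC compares the PGC preparation with the ESC preparation. In that table only the FSHR region was listed, at 2.24-fold, and at least 2-fold higher in PGC were 23.5% of all 4801 regions and 55.0% of the 2027 that were peaks in PGC and not in ESC. The PGC and ESC counts at 11 SSC peaks of the other genes can be set side by side from the other tables, which give the same counts for shared libraries. Their log2 ratios ran from -0.72 (-2.10 to 0.65) at the LHX9 intron region to 0.69 (-1.47 to 2.85) at NR5A1, with a median of -0.09. At least 2-fold apart in either direction were 0 of 11, and every interval included 0. Of the 1472 SSC peaks with counts in all 3 populations, 4.28% were at least 2-fold higher in PGC, 294 were at least 2-fold lower, and the median was -0.20. The interval excluded 0 at 138 of these 1472. Among the 11 regions, the largest interval end, 2.85, leaves room for sizeable differences, so the values do not show that PGC and ESC were alike. Enrichment was highest in SSC at all 11, and at 83.4% of the 1472. Of the 1472, 149 were also ESC peaks and 2 were also PGC peaks, while of the 11 these were 0 and 0. The shares of the 1472 are therefore not matched to the 11 regions, and no difference is read from them.

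Other genes of gonad formation were taken from a list of 19, with 1 region each, the one nearest the start. In SSC over PGC, 4 were listed and all 4 were at least 2-fold higher in SSC, compared with 39.8% of the 2064 genes with a symbol, of which 20.9% were lower. All 4 were SSC peaks, and of the 1119 genes whose nearest region was a peak in SSC and not in PGC, 72.5% were at least 2-fold higher. GATA4, a zinc finger factor of the early gonad and of Sertoli cells, had 396 IP over 72 input reads in SSC, against 127 over 105 in PGC, in a region from 106954504 to 106959036 on chromosome 3, a log2 ratio of 2.17 (1.66 to 2.69). NR2F2, a nuclear receptor of interstitial cells, had 161 over 21 in SSC, against 49 over 36 in PGC, a ratio of 2.45 (1.56 to 3.34). OSR1, a factor of intermediate mesoderm, had 2.52 (0.21 to 4.83) in a region 178976 bp from its start.

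In SSC over ESC, 5 genes of that list were listed, of which 3 were at least 2-fold higher in SSC and 0 lower, compared with 22.8% and 39.5% of the 2592 genes. Of the 5, 4 were SSC peaks. Among the 833 genes whose nearest region was a peak in SSC and not in ESC, 67.3% were at least 2-fold higher. Nearest regions differ between tables, and for OSR1, NR2F2 and GATA4 they were other regions than over PGC. OSR1 had 2.09 (0.52 to 3.67) at -3610 bp, NR2F2 1.58 (0.24 to 2.93) at 259 bp, and GATA4 lay at the 2-fold mark (-0.68 to 2.68) at -1366 bp. SIX4 pointed the other way, at -0.72 (-2.34 to 0.90). In PGC over ESC, of 4 listed genes 1 was higher and 1 lower. SIX4 was the lower one at -2.38 (-4.08 to -0.68), compared with 20.3% of 2269 genes higher in PGC and 53.1% lower.

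Other Sertoli and testis determination genes, a list of 27, did not share 1 direction. In SSC over PGC 9 were listed, with 3 at least 2-fold higher in SSC, 2 lower and a median log2 ratio of 0.36. Of all genes, 39.8% were higher and 20.9% lower, with a median of 0.49. In SSC over ESC 5 were listed, with 2 higher, 2 lower and a median of -0.69. Of all genes, 22.8% were higher and 39.5% lower, with a median of -0.59. The intervals of all these listed genes of the 27 included 0. DMRT1, the Z-linked testis determinant, had an SSC peak 14914 bp into the gene with a log2 ratio over PGC of -0.05 (-2.25 to 2.15), and CLDN11, of the Sertoli cell tight junction, had 1.74 (-0.84 to 4.32). SOX9, AMH and DHH, defining Sertoli genes, had no listed region. In PGC over ESC 4 were listed, 0 higher and 3 lower, beside 20.3% and 53.1% of all genes, with the receptor FGFR3 at -2.56 (-3.52 to -1.59).

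Of 21 FSH and activin signalling genes 3 were listed in each table, PRKACB, PRKAR1A and ACVR2A. Higher in SSC by 2-fold or more was 1 of them, PRKAR1A, both over PGC (1.68, -1.50 to 4.86) and over ESC (1.09, -1.41 to 3.59), and 1 was lower than in ESC, PRKACB at -1.16 (-3.23 to 0.91). Of all genes, 39.8% were higher over PGC, and over ESC 22.8% were higher and 39.5% lower. In PGC over ESC 2 of the 3 were lower, beside 53.1% of all genes, with the activin receptor ACVR2A at -1.73 (-3.04 to -0.41).

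Genes of other gonadal cell types were listed as well. Of 19 steroidogenic and interstitial genes 3 were listed with SSC, PTCH1, PDGFRA and NR2F1, all SSC peaks, and 2 of the 3 were at least 2-fold higher in SSC in each comparison. Of all genes whose nearest region was a peak in SSC alone, 67.3% were over ESC and 72.5% over PGC. PDGFRA had 1.43 (0.49 to 2.37) over ESC and 0.65 (-0.41 to 1.72) over PGC, and the intervals of PTCH1 and NR2F1 included 0 in both comparisons. STAR, CYP11A1, CYP17A1 and HSD3B2, which define steroid-producing cells, had no region. Summed IP signal of the 3 listed genes was 5.27 RPM in SSC against 3.57 RPM in ESC, and 5.80 RPM in SSC against 2.62 RPM in PGC. Of 17 fibroblast and peritubular genes, 5 were listed over ESC and 4 over PGC, 3 higher and 0 lower in each, and 4 of these were SSC peaks in each, so the same shares apply. The interval excluded 0 for LUM over ESC, at 3.08 (0.45 to 5.71), and for COL5A1 over PGC, at 1.94 (0.23 to 3.65), and included it for the others. COL1A1, COL3A1, DCN, ACTA2 and MYH11 had no region. Summed IP signal of the listed fibroblast and peritubular genes was 3.92 RPM in SSC against 2.80 RPM in ESC, and 3.29 RPM in SSC against 2.22 RPM in PGC. The part of any such cell type in the values of LHX9, NR5A1, WT1 or INHBB was not tested.

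Mesonephros and kidney genes, a list of 12 that shares WT1 and EMX2 with the genes described here, had only those 2 listed, and PAX2, PAX8 and LHX1 had no region. Of 11 blood and endothelial genes, 2 were listed over ESC and 1 over PGC, with 0 higher in SSC by 2-fold and GATA2 at -1.65 (-3.12 to -0.17) over ESC. Of 19 germ cell genes 3 were listed over ESC, with TFAP2C at -3.20 (-4.15 to -2.25) and TDRD7 at -2.38 (-6.12 to 1.36). A CXCR4 region 47214 bp from the start had 1.397 (-0.60 to 3.39) over ESC and 1.61 (-0.27 to 3.501) over PGC, where 2 genes were listed, so both of its intervals included 0. Of 13 spermatogonial genes 2 were listed over ESC and 0 over PGC, and of 13 pluripotency genes 5 in each. Over ESC 1 of these 5 was at least 2-fold higher in SSC and 2 were lower, MYCN at -1.71 (-2.38 to -1.05) and KLF5 at -2.17 (-3.67 to -0.67). Their median log2 ratio was 0.30, beside -0.59 for all genes, of which 22.8% were higher and 39.5% lower. Over PGC 2 were higher and 2 lower, with a median of -0.09, beside 39.8%, 20.9% and 0.49 for all genes.

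Genes outside these lists had like enrichments. Over the 2 populations of each table, and among genes with at least 18 SSC IP reads, NET1, DIP2C and gga-mir-30d lay nearest to the member median in SSC over ESC, with NET1 at 4.69 in SSC and 1.99 in ESC beside member medians of 4.78 and 1.92. In SSC over PGC the nearest were ARF6, CNKSR3 and PPP1CC, with ARF6 at 4.76 in SSC and 1.62 in PGC beside 4.71 and 1.65. All 6 were SSC peaks, and likeness over 2 populations describes these libraries only.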

How the data were processed

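The authors deposited 3 tables of regions, 1 per pair of populations, on the build galGal4. Per the submitters' processing notes CASAVA 1.8, FastQC, BWA and MACS2 were used. Their settings, and how reads were counted per region, are not given in the sources used here, and neither is the base from which coordinates count, so positions are as deposited. Their columns hold, per the file headers, a count of reads and an RPM value for every library, an enrichment ratio per population and a log2 ratio between populations. In the deposited tables, RPM is the count plus 1 over the library total, and 100% of counts were recovered from it within 0.05 reads. The deposited log2 ratios set the earlier population over the later, and were recomputed here as later over earlier.

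Rows repeated for several genes were collapsed (152, 55 and 90 rows). Intervals of log2 ratios were computed by the delta method from 4 counts each, those of enrichments from the exact conditional binomial (Clopper-Pearson) method, and all cover counting error only. An input of 0 reads was set to a floor of 3 counts for bounds. The interval of log2 ratios was checked on simulated counts that held counting error only, which is what it assumes. That check does not cover variation between libraries. No test between conditions was possible. The 7 genes, the 10 other lists and the named genes were chosen with earlier results of these data known. From the other lists, up to 2 genes per direction beyond 2-fold whose interval excluded 0 were named, with GATA4 and NR2F2 always, and likeness took the 3 nearest genes. Further genes of those lists were named after their values were seen, as were genes without a region. Values of 1 gene of these lists are not reported here. No sequence was used. Python 3.11.15, pandas 2.3.3 and scipy 1.17.1 were used.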

Additional observations from a re-analysis of the deposited data

How the results depend on the processing

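No paired analysis was possible because each population has 1 IP and 1 input library. Other added counts, a floor for inputs of 0 reads, centring on the table medians (-0.31 for SSC over ESC, 0.42 for SSC over PGC and -0.90 for PGC over ESC) and the use of no input gave 166 single-region values that differed from those reported by less than the counting interval and 2 that did not. Both of these were the LHX9 intron region in SSC over PGC, 0.89 without inputs and, identically by construction, with the inputs pooled. The allowed difference was wide, as the median counting standard error over all regions was 1.06 log2 units in SSC over ESC and 1.03 in SSC over PGC. The floor changed only the LHX9 region at 3082 bp. The number 166 is therefore weak evidence that the values are stable. Every SSC over ESC value stayed above 0 in these settings, and so did every SSC over PGC value except that of FSHR without inputs. With at least 20 IP reads required in the higher population, 3 regions were at least 2-fold higher in SSC in place of 9 over ESC, and 3 in place of 10 over PGC, since 4 regions reach that depth in each table. The share over all regions is not given for this rule, so these counts have no background. For FSHR in PGC over ESC, the count of 1 became 0 at that depth and 0 at 3-fold. An exact conditional interval excluded 0 at 2 regions in place of 4 in SSC over ESC, without NR5A1 and the LHX9 intron region, and at 4 in SSC over PGC. The counts by the exact interval have no background either. The IP libraries alone, chosen after seeing the data, gave 8 in each. By that rule the interval lay above 0 for 13.3% of all regions in SSC over ESC and 14.8% in SSC over PGC. The motif setting was not run, as no sequence was used.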
